A study of Sus scrofa with 16 samples.

Results

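Retinoid metabolism and signalling genes were followed in the hippocampus of preterm pigs with and without necrotizing enterocolitis (NEC), an acute inflammatory bowel disease of preterm newborns. The 9 genes were *ALDH1A1*, *ALDH1A2*, *ALDH1A3*, *RBP4*, *CRABP1*, *CRABP2*, *CYP26B1*, *DHRS3* and *RARB*, which were picked by name as parts of this pathway, with earlier results of these data known, so their values below are a description. Each was found as 1 distinct entry of the 22815 in the expression table. Of the 9, 8 had a mean of at least 0.5 FPKM (a level scaled to transcript length and library size) over the pigs and were among the 13590 entries tested. *ALDH1A2*, with a mean of 0.350 FPKM, was not.

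The left hippocampus was taken from pigs delivered preterm by Cesarean section. For about a week they were given increasing amounts of human donor milk, of different types, and decreasing amounts of parenteral nutrition. They also received sow plasma by infusion. NEC arose spontaneously in some of them during that time. Si-NEC pigs (n = 6, 3 female and 3 male) had severe small intestinal lesions, and their colon could be affected or not. Co-NEC pigs (n = 5, 2 female and 3 male) had severe lesions in the colon only. No NEC pigs (n = 5, 2 female and 3 male) had no visible lesion in any part of the gut. All groups shared the preterm birth and this scheme of feeding, so No NEC pigs were not healthy term controls. The groups were formed by the disease that arose and not by an assigned treatment. How the types of donor milk were spread over the groups is not stated. Each pig gave 1 RNA sample of the whole left hippocampus, and the labels do not say which pigs shared a litter or a diet.

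Vitamin A travels as retinol and is oxidised in tissues, first to retinal and then to retinoic acid. The last step is made by the retinaldehyde dehydrogenases of the ALDH1A family. Retinoic acid binds nuclear receptors of the RAR family, which switch target genes on, and CYP26 enzymes clear it. In brain, retinoic acid is known for its part in regional patterning and, after birth, in the plasticity of hippocampal synapses, and the meninges are a known source of it.

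The table holds FPKM values and no read counts, so the depth of each library and the counting error of each value are unknown. FPKM values summed to between 544629 and 645197 in 14 of the 16 pigs, against 823320 in Si-NEC pig 223-15 and 864931 in No NEC pig 230-15. These 2 libraries stood apart, and the results are given with and without them where they matter. Of the listed hippocampal neuron markers, *SLC17A7* averaged 582 FPKM, *PROX1* 7.90 FPKM and *ZBTB20* 4.60 FPKM over the pigs. These levels describe the tissue and are no test of its label. The other 4 of the 7 listed markers of these neurons were not found by name. Of the astrocyte markers *ALDH1L1* was listed at 0 in all pigs, while *GFAP*, *SLC1A3* and *GJA1* together gave 892 to 1528 FPKM.

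In the hippocampus as a whole the 9 genes covered a wide span of levels. The per-length level was highest for *RBP4* (19.7 ± 5.23 FPKM, SD over 16 pigs) and *DHRS3* (17.3 ± 4.0 FPKM), whose ranges overlapped widely. *CRABP1* (5.41 ± 2.90 FPKM) and *ALDH1A1* (4.83 ± 2.66 FPKM) came next and could not be ordered beyond their spread. *RARB* (3.0 ± 0.529 FPKM), *CYP26B1* (2.19 ± 0.517 FPKM) and *ALDH1A3* (1.66 ± 0.490 FPKM) followed. *CRABP2* (1.0 ± 1.36 FPKM) and *ALDH1A2* (0.350 ± 0.187 FPKM) were lowest, and the SD of *CRABP2* was larger than its mean.

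**Figure D1:**
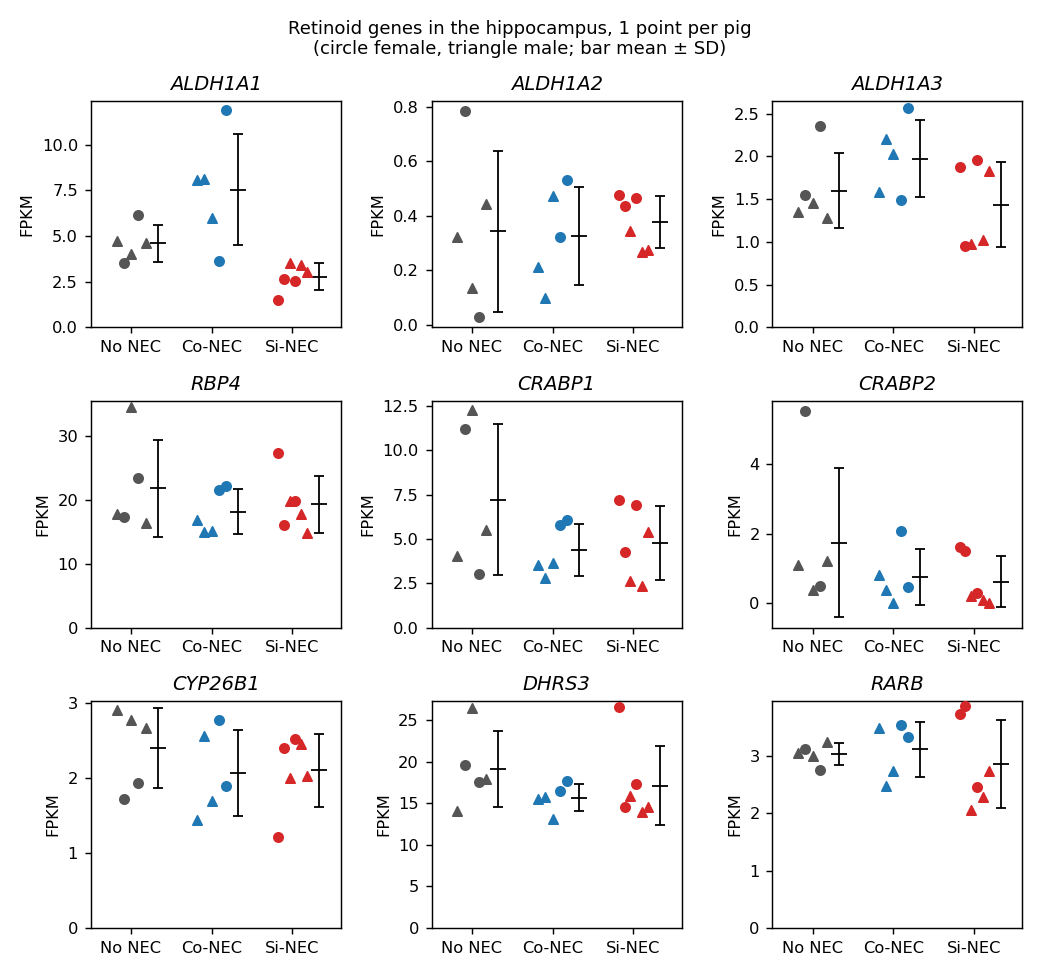
FPKM of each of the 9 retinoid genes (vertical axes, FPKM) in No NEC, Co-NEC and Si-NEC pigs, with 1 point per pig (circles female, triangles male) and the group mean ± SD beside the points. In *ALDH1A1* all 6 Si-NEC pigs lie below the lowest Co-NEC pig at 3.65 FPKM, whereas the groups overlap in the other 8 genes.

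The comparison of Si-NEC with Co-NEC pigs, 2 groups with severe lesions in different gut regions, gave the widest gap of any of the 9 genes. *ALDH1A1*, the retinaldehyde dehydrogenase with the highest level here, was lower in every Si-NEC pig than in every Co-NEC pig. Its FPKM in the Co-NEC pigs was 3.65 in pig 255-15, 5.98 in 552-14, 8.05 in 225-15, 8.12 in 545-14 and 11.9 in 231-15. In the 6 Si-NEC pigs it ran from 1.49 in pig 223-15 over a median of 2.85 to 3.53 in pig 547-14. The gap between the groups was narrow at its nearest point and rested there on pig 255-15, which lay well below the other Co-NEC pigs. In the No NEC pigs *ALDH1A1* was 3.51 in pig 228-15, 4.0 in 230-15, 4.61 in 550-14, 4.71 in 540-14 and 6.17 in 253-15. These lay between the other groups, with 5 of 6 Si-NEC pigs below every No NEC pig and 3 of 5 Co-NEC pigs above every No NEC pig.

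The mean of *ALDH1A1* was 2.77 ± 0.743 FPKM in Si-NEC pigs (SD, n = 6), 4.60 ± 1.0 FPKM in No NEC pigs (n = 5) and 7.54 ± 3.04 FPKM in Co-NEC pigs (n = 5), so that the Si-NEC mean was 63.2% below that of Co-NEC pigs and 39.7% below that of No NEC pigs. On the log2(FPKM + 0.5) scale, which understates the change of low genes, Si-NEC minus Co-NEC was -1.24 (SE 0.26, 95% interval -1.81 to -0.67). This did not pass the threshold of the limma fit over all entries, an adjusted p of 0.2 (Benjamini-Hochberg adjusted p = 0.634), although only 9 of the 13590 entries had a smaller p. Across the alternative settings the adjusted p ran from 0.141 to 1. It passed the threshold with array weights (adjusted p = 0.141) and without Co-NEC pig 255-15 (difference -1.46, adjusted p = 0.186), and in no other setting tried. Of the 13590 entries, array weights called 201 and leaving out pig 255-15 called 5, against 2 in the main fit. Pig 255-15 was the Co-NEC pig nearest to the Si-NEC pigs, so leaving it out had to widen the difference. Of the 9 genes only *ALDH1A1* had groups that did not overlap here, which 0.235% of all entries tested had with Si-NEC lower and 0.309% with Si-NEC higher. In the comparisons with No NEC pigs every one of the 9 genes overlapped, where 0.118% of entries lay apart with Si-NEC higher and 0.0368% with Si-NEC lower, and 0.235% with Co-NEC higher and 0.228% with Co-NEC lower.

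The comparisons of each NEC group with the No NEC pigs share those 5 pigs and are set side by side. For *ALDH1A1*, Si-NEC minus No NEC was -0.66 on the log2 scale (SE 0.20, 95% interval -1.08 to -0.23, limma adjusted p = 1), and Co-NEC minus No NEC was 0.59 (SE 0.26, 95% interval 0.0087 to 1.16, adjusted p = 0.812). Neither passed the threshold. Without pigs 223-15 and 230-15 these differences were -0.56 and 0.55, and Si-NEC minus Co-NEC was -1.10. The sign of each of the 3 differences was the same in every alternative setting tried, including the rescaling of each pig. The interval of Co-NEC minus No NEC included 0, however, with that rescaling, with sex or number suffix as covariate, with no filter, and when any single pig other than 253-15 or 255-15 was left out.

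Within each sex, and within each suffix of the pig's number (14 or 15), the means of *ALDH1A1* had the same order of groups. The labels do not say what the suffix marks. These sets are splits of the same pigs, so their order is no separate support. In males *ALDH1A1* was 3.06 to 3.53 FPKM in Si-NEC, 4.0 to 4.71 FPKM in No NEC and 5.98 to 8.12 FPKM in Co-NEC pigs, with 3 pigs in each group. How many of all entries separate in sets as small as these and those below was not counted. In females it was 1.49 to 2.64 FPKM in 3 Si-NEC pigs, 3.51 and 6.17 FPKM in the 2 No NEC pigs, and 3.65 and 11.9 FPKM in the 2 Co-NEC pigs. Females of the No NEC and Co-NEC groups overlapped. Among pigs with suffix 14 the ranges were 3.39 to 3.53 FPKM in Si-NEC, 4.61 to 4.71 FPKM in No NEC and 5.98 to 8.12 FPKM in Co-NEC pigs, with 2 pigs in each group. Among pigs with suffix 15 the Si-NEC values of 1.49 to 3.06 FPKM lay below the others, while No NEC (3.51 to 6.17 FPKM) and Co-NEC pigs (3.65 to 11.9 FPKM) overlapped. The interaction of *ALDH1A1* with sex did not pass the threshold in any comparison (limma adjusted p = 0.465 with Si-NEC and No NEC pigs, 0.959 with Co-NEC and No NEC pigs, 0.778 between the NEC groups).

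None of the 8 tested genes passed the threshold in any of the 3 comparisons. For Si-NEC against No NEC 0 of 8 genes passed, where 1 of all entries did (0.00736%), and 1 of 8, *ALDH1A1*, had an unadjusted p under 0.05, as 2.61% of all entries did. For Co-NEC against No NEC 0 of 8 passed against 0.00736% of all entries, with 1 gene, again *ALDH1A1*, and 3.44% of entries at an unadjusted p under 0.05. Without pig 230-15, and under the other settings in which its interval included 0, *ALDH1A1* was not among them. Between the NEC groups 0 of 8 passed against 0.0147% of all entries, with *ALDH1A1* and 5.64% of entries at an unadjusted p under 0.05. The fit thus called almost nothing anywhere in the table, and a count of 0 among 8 genes is near that background.

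*ALDH1A3*, a second retinaldehyde dehydrogenase, was 1.98 ± 0.446 FPKM in Co-NEC (SD, n = 5), 1.60 ± 0.436 FPKM in No NEC (n = 5) and 1.44 ± 0.497 FPKM in Si-NEC pigs (n = 6). Its group means thus stood in the same order as those of *ALDH1A1*, but the ranges overlapped in all 3 comparisons. In the Si-NEC pigs the values formed a lower set of 0.956 in pig 224-15, 0.977 in 547-14 and 1.02 in 539-14, and an upper set of 1.83 in 226-15, 1.87 in 223-15 and 1.96 in 246-15. Both sets held pigs of both sexes. In the Co-NEC pigs *ALDH1A3* ran from 1.49 FPKM in pig 255-15 to 2.57 FPKM in pig 231-15, the same pigs that were lowest and highest for *ALDH1A1*. Si-NEC minus Co-NEC was -0.38 on the log2 scale (SE 0.19, 95% interval -0.80 to 0.05, limma adjusted p = 0.867).

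*ALDH1A2*, the retinaldehyde dehydrogenase of mesenchymal tissues and the meninges, was 0.342 ± 0.294 FPKM in No NEC, 0.327 ± 0.179 FPKM in Co-NEC and 0.377 ± 0.0948 FPKM in Si-NEC pigs. At these levels its values were below the filter and most exposed to the unknown counting error. The highest and the lowest pig were both in the No NEC group, 228-15 at 0.783 FPKM and 253-15 at 0.0281 FPKM. With no filter on low values its log2 differences were 0.12 for Si-NEC and 0.01 for Co-NEC, each minus No NEC, far smaller than those of *ALDH1A1*.

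The summed FPKM of the 3 dehydrogenases, computed after the single values were seen, followed *ALDH1A1*. It was 4.59 ± 0.537 in Si-NEC, 6.54 ± 1.17 in No NEC and 9.84 ± 3.46 in Co-NEC pigs. The highest Si-NEC sum was 5.17 in pig 226-15 and the lowest Co-NEC sum was 5.46 in pig 255-15. Because *ALDH1A1* is part of the sum, this gap is no separate support for that of *ALDH1A1*. *ALDH1A1* made up 75.3 ± 6.30% of the sum in Co-NEC, 70.1 ± 5.64% in No NEC and 60.0 ± 13.2% in Si-NEC pigs. The Si-NEC pigs differed widely among themselves, from 38.8% in pig 223-15 to 72.8% in pig 547-14. These sums describe transcripts of 3 genes per length and are no measure of enzyme activity. In whole tissue, fewer cells that express a gene and less of its RNA per cell cannot be told apart.

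**Figure D2:**
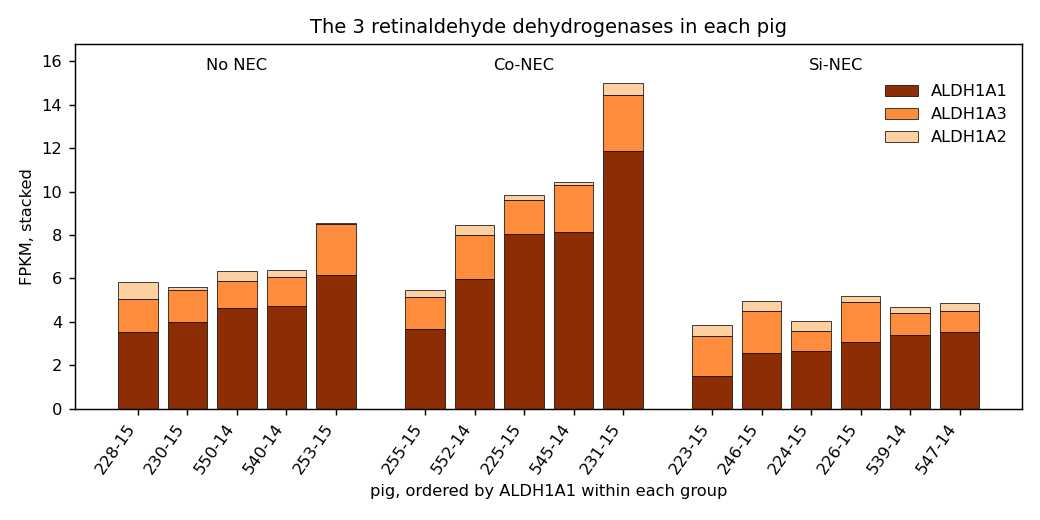
FPKM of *ALDH1A1*, *ALDH1A3* and *ALDH1A2* stacked for each pig (vertical axis, FPKM), with pigs ordered by *ALDH1A1* within each group. The Si-NEC sums lie between 3.83 and 5.17 FPKM and the Co-NEC sums between 5.46 and 15.0 FPKM, and most of that gap is *ALDH1A1*.

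Among the carriers, *RBP4*, which transports retinol in blood, was 21.8 ± 7.57 FPKM in No NEC, 18.1 ± 3.52 FPKM in Co-NEC and 19.3 ± 4.39 FPKM in Si-NEC pigs. The No NEC values were 16.3 in pig 550-14, 17.2 in 228-15, 17.7 in 540-14, 23.3 in 253-15 and 34.4 in 230-15. Pig 230-15 alone stood far above the rest, and it was the library with the highest FPKM sum. The Co-NEC values were 14.9 to 22.2 FPKM and those of Si-NEC 14.8 to 27.2 FPKM, the latter in pig 223-15, the other library with a high sum. Si-NEC minus No NEC was -0.14 on the log2 scale (SE 0.21, adjusted p = 1) with all pigs, 0.03 without pig 230-15 and -0.25 without pig 223-15, so its sign rested on 1 pig. Co-NEC minus No NEC was -0.22 (SE 0.21) with all pigs and -0.05 without pig 230-15.

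*CRABP1*, which binds retinoic acid in the cytosol, varied more within groups than 92.4% of the entries tested. In the No NEC pigs it was 3.04 FPKM in pig 253-15, 4.07 in 540-14, 5.53 in 550-14, 11.2 in 228-15 and 12.3 in 230-15. These 2 high pigs were above every pig with NEC. The Co-NEC pigs had 2.77 to 6.05 FPKM (mean 4.36 ± 1.47) and the Si-NEC pigs 2.33 to 7.17 FPKM (mean 4.78 ± 2.07), against a No NEC mean of 7.22 ± 4.23. The log2 differences from No NEC were -0.47 (SE 0.39) for Si-NEC and -0.54 (SE 0.37) for Co-NEC, both with intervals that included 0. They were -0.24 and -0.31 without pig 230-15, and -0.70 and -0.77 without No NEC pig 253-15, where the Co-NEC interval (-1.54 to -0.0062) left out 0. In males it was 2.77 to 3.66 FPKM in Co-NEC and 2.33 to 5.40 FPKM in Si-NEC, and in females 5.80 to 6.05 FPKM and 4.24 to 7.17 FPKM.

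*CRABP2*, which carries retinoic acid to its nuclear receptors, had a larger within-group spread on the log2 scale than 97.1% of the entries tested. In the No NEC pigs it was 0.362 FPKM in pig 230-15, 0.480 in 253-15, 1.09 in 540-14, 1.20 in 550-14 and 5.53 in 228-15. In the Co-NEC pigs it was listed at 0 in pig 552-14 and was 0.369 in 545-14, 0.455 in 231-15, 0.799 in 225-15 and 2.09 in 255-15. The Si-NEC pigs had a median of 0.241 FPKM, from a listed 0 in pig 226-15 to 1.61 in 223-15. A listed 0 in this table can be a failed estimate, and the groups overlapped throughout. Si-NEC minus No NEC was -0.85 on the log2 scale (SE 0.54, 95% interval -2.03 to 0.33, limma adjusted p = 1), and -0.39 without No NEC pig 228-15. Leaving out pigs 223-15 and 230-15 instead gave -1.33 (SE 0.54, adjusted p = 1). In that limma fit 2 of the 8 tested genes had an unadjusted p under 0.05, against 1 with all pigs, as did 448 of the 13590 entries.

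For the clearing enzymes the 95% interval included 0 in all 3 comparisons with all pigs. *CYP26B1*, which breaks down retinoic acid in brain, was 2.40 ± 0.538 FPKM in No NEC, 2.07 ± 0.572 FPKM in Co-NEC and 2.11 ± 0.490 FPKM in Si-NEC pigs. Its lowest values were 1.22 in Si-NEC pig 223-15 and 1.44 in Co-NEC pig 225-15, and its highest 2.91 in No NEC pig 540-14. Si-NEC minus No NEC was -0.16 on the log2 scale (SE 0.18, 95% interval -0.56 to 0.24), and it was -0.05 without pig 223-15, -0.25 without No NEC pig 228-15 and 0.00 without pigs 223-15 and 230-15. Differences within that interval could not be told from 0 with these pigs.

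*DHRS3*, which reduces retinal back to retinol, was 19.1 ± 4.60 FPKM in No NEC, 15.7 ± 1.67 FPKM in Co-NEC and 17.1 ± 4.79 FPKM in Si-NEC pigs. Its 2 highest values belonged to the libraries with the highest FPKM sums, 26.6 in Si-NEC pig 223-15 and 26.5 in No NEC pig 230-15. The other 14 pigs ran from 13.1 FPKM in Co-NEC pig 552-14 to 19.5 FPKM in No NEC pig 228-15. The log2 difference from No NEC was -0.16 (SE 0.19) for Si-NEC and -0.25 (SE 0.16) for Co-NEC with all pigs. These 2 libraries, 1 in each group, moved the Si-NEC difference in opposite directions, to -0.29 without pig 223-15, -0.04 without pig 230-15 and -0.17 (SE 0.11) without both. The Co-NEC difference was -0.13 (SE 0.12) without pig 230-15.

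*RARB*, a retinoic acid receptor whose own gene is a classical target of retinoic acid, was the steadiest of the 8 tested genes, with a within-group spread larger than that of 31.9% of the entries. It was 3.04 ± 0.187 FPKM in No NEC, 3.12 ± 0.478 FPKM in Co-NEC and 2.86 ± 0.768 FPKM in Si-NEC pigs. The Si-NEC pigs spread most, with 2.06 in pig 547-14, 2.28 in 539-14, 2.47 in 246-15, 2.74 in 226-15, 3.74 in 223-15 and 3.87 in 224-15. Of these, 2 were above and 4 below every No NEC pig, whose values lay between 2.75 and 3.26 FPKM. Si-NEC minus No NEC was -0.10 on the log2 scale (SE 0.16, 95% interval -0.45 to 0.24), Co-NEC minus No NEC 0.02 (SE 0.12) and Si-NEC minus Co-NEC -0.13 (SE 0.16). The first of these was -0.19 without Si-NEC pig 224-15 and -0.03 without Si-NEC pig 547-14.

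**Figure D3:**
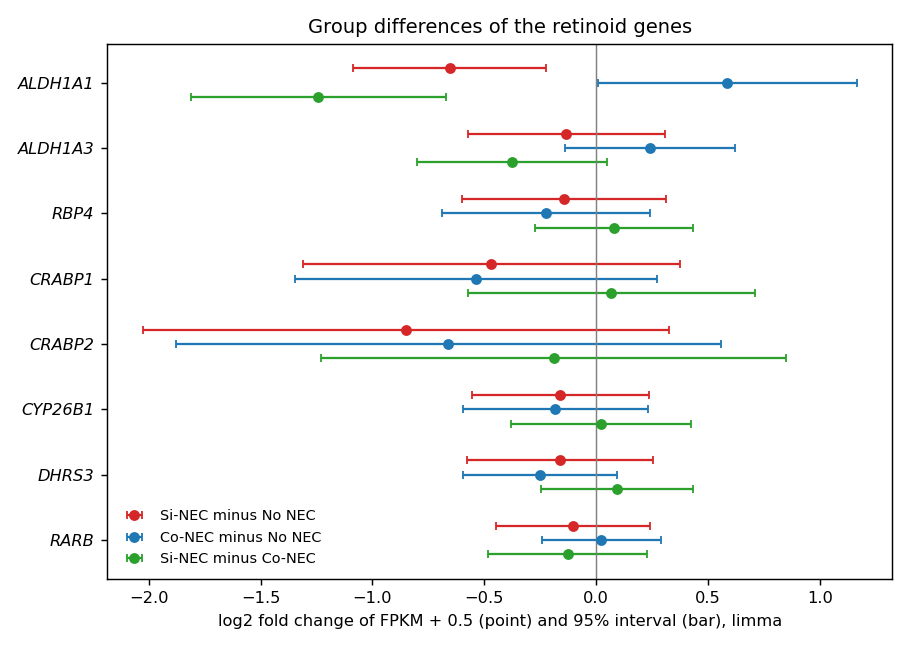
Differences between groups on the log2(FPKM + 0.5) scale (horizontal axis) for the 8 tested genes, with points for the limma estimate and bars for its 95% interval. Only the 3 intervals of *ALDH1A1* leave out 0, at -1.08 to -0.23, 0.0087 to 1.16 and -1.81 to -0.67, and none of the 24 differences passed the threshold after adjustment.

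Read together, the 8 tested genes had a lower Si-NEC than No NEC estimate in 8 of 8 cases, with a median log2 difference of -0.16, where 46.2% of all entries were lower and their median was 0.02. For 7 of the 8 the 95% interval included 0. The count was 7 of 8 lower without pig 230-15, where *RBP4* crossed 0, and 7 of 8 without pigs 223-15 and 230-15, where *CYP26B1* did, and the median was -0.27 without pig 223-15. For Co-NEC minus No NEC, 3 were higher and 5 lower (median -0.20, all entries 0.01), with a median of -0.09 without pig 230-15. For Si-NEC minus Co-NEC, 4 were higher and 4 lower (median -0.05, all entries 0.00). That split rested on single pigs, with 1 of 8 higher (median -0.13) without pig 223-15 and 5 of 8 higher (median 0.11) without Co-NEC pig 255-15. The 2 comparisons with No NEC share their control pigs, of which 228-15 and 230-15 held the highest value of 4 of the 9 genes, *ALDH1A2* and *CRABP2* in the former and *RBP4* and *CRABP1* in the latter.

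**Figure D4:**
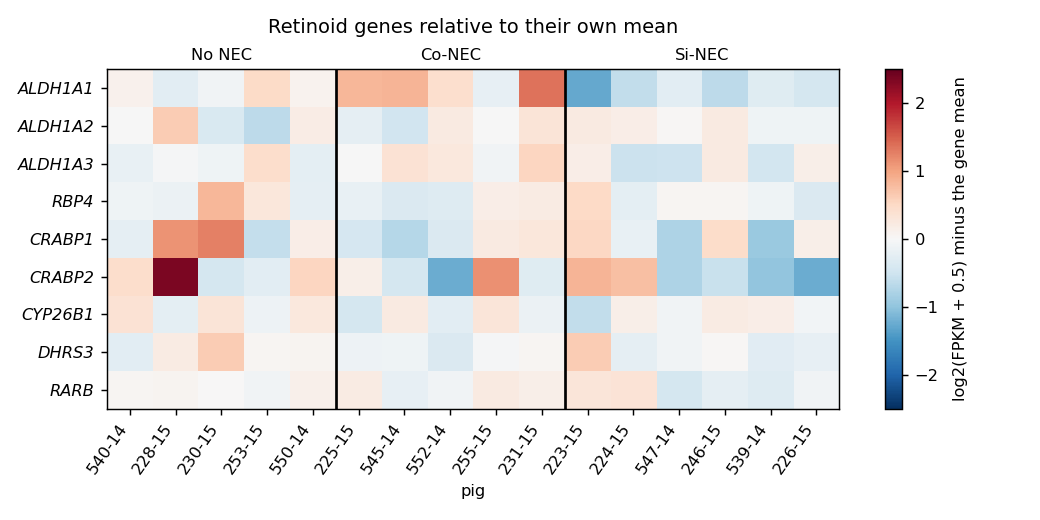
The 9 genes (rows) in each pig (columns, grouped as No NEC, Co-NEC and Si-NEC), coloured by log2(FPKM + 0.5) minus the mean of the gene over the 16 pigs. *ALDH1A1* is below its mean in all 6 Si-NEC pigs and above it in 4 of 5 Co-NEC pigs, while the strongest single cell is *CRABP2* in No NEC pig 228-15, at 5.53 FPKM.

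The genes did not move as a block from pig to pig. Among the 36 pairs of the 9 genes, 2 passed an adjusted permutation p of 0.05 by Pearson's r and 0 passed by both r and Spearman's rho. *DHRS3* and *RBP4* had r = 0.82 over 16 pigs (permutation p = 0.00036, adjusted p = 0.0130), with rho at 0.62 (permutation p = 0.0121, adjusted p = 0.145). Without pigs 223-15 and 230-15, the 2 farthest from the median of *DHRS3*, r was 0.48, so the relation rested on those pigs. *DHRS3* and *CRABP1* had r = 0.72 (permutation p = 0.00186, adjusted p = 0.0335), with rho at 0.70 (permutation p = 0.00320, adjusted p = 0.0576), with r = 0.61 without the same pigs. *RARB* and *CRABP2*, the receptor and the carrier that serves it, had r = 0.65 (permutation p = 0.00611, adjusted p = 0.0733), with rho at 0.79 (permutation p = 0.000350, adjusted p = 0.0126), and r was 0.60 once the 2 pigs with the most extreme *RARB* were left out.

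The retinoid genes were set beside markers of tissues next to the hippocampus, because a dissected hippocampus can carry meninges, choroid plexus or neighbouring brain. Of 14 listed meningeal markers 9 were used, among them the collagens *COL1A2* and *COL3A1* and the proteoglycans *DCN* and *LUM*. Their summed level was 35.1 to 90.6 FPKM in No NEC, 43.0 to 58.3 FPKM in Co-NEC and 35.8 to 57.6 FPKM in Si-NEC pigs, with the highest sum in pig 228-15 and the lowest in pig 230-15. Of 12 choroid plexus markers 4 were used (*TTR*, *SLC4A5*, *F5* and *SLC5A5*), with *CLIC6*, *OTX2* and *PRLR* below the filter and *SOSTDC1* at 0. Their sum was 16.1 to 41.9 FPKM in No NEC, 9.59 to 22.4 FPKM in Co-NEC and 15.5 to 37.1 FPKM in Si-NEC pigs. *KL*, *FOLR1* and *AQP1* were not found by name, and *KCNJ13* had several entries. The 4 markers did not all move together. In pig 230-15 *TTR* was the highest of the No NEC group (23.4 FPKM), but *F5* (5.66 FPKM) and *SLC4A5* (0.190 FPKM) were the lowest of all pigs. In pig 552-14 *F5* was the highest of all pigs (16.5 FPKM) beside a *TTR* of 4.13 FPKM. The endothelial list (4 of 8 used) summed to 15.7 to 27.6, 16.4 to 21.2 and 19.9 to 27.0 FPKM in the same order of groups, and the striatal list (5 of 11 used, *ISL1* at 0) to 83.1 to 224, 78.2 to 121 and 99.4 to 168 FPKM.

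With all pigs, *CRABP2* had the highest r of the 9 genes with the meningeal markers. Over 16 pigs its log2 level had r = 0.71 with their mean standardised level (permutation p = 0.00202, adjusted p = 0.0361 over 36 relations), with rho at 0.65 (permutation p = 0.00743, adjusted p = 0.134). Leaving out the 2 pigs farthest from the median marker level gave r = 0.63, and leaving out pig 228-15 gave 0.55 (adjusted p = 0.199). Pig 228-15 was highest in both. With the group means removed, r was 0.76 (adjusted p = 0.0102) and rho was 0.76 (adjusted p = 0.0450). *RARB* had r = 0.50 (permutation p = 0.0461, adjusted p = 0.227), with rho at 0.62 (permutation p = 0.0116, adjusted p = 0.139) with the same markers, and r was 0.75 without the 2 farthest pigs. *CRABP1* had r = 0.25 with these markers over all pigs (permutation p = 0.353, adjusted p = 0.636). Without pigs 223-15 and 230-15 its r was 0.78, beside 0.79 for *CRABP2*, and without the 2 farthest pigs it was 0.62. *ALDH1A1* showed no such relation, with r = -0.04 (permutation p = 0.885, adjusted p = 0.922), with rho at -0.09 (permutation p = 0.736, adjusted p = 0.829).

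*ALDH1A2* had the highest r of the 9 genes with the mean level of the choroid plexus markers, which did not all move together (r = 0.76, permutation p = 0.000520, adjusted p = 0.0187). Its rho was 0.68 (permutation p = 0.00501, adjusted p = 0.134), and r was 0.66 without the 2 farthest pigs and 0.68 without pig 228-15 (adjusted p = 0.102). With the meningeal markers it had r = 0.64 (permutation p = 0.00736, adjusted p = 0.0662), with rho at 0.51 (permutation p = 0.0430, adjusted p = 0.387), and r was 0.39 without the 2 farthest pigs, so that relation rested on them. *DHRS3* had r = 0.75 with the striatal markers (permutation p = 0.00301, adjusted p = 0.0361), with rho at 0.39 (permutation p = 0.140, adjusted p = 0.483), and r was 0.11 without pigs 223-15 and 230-15, on which it rested. Of the 36 relations 3 passed an adjusted p of 0.05 by r, and 0 by rho. *ALDH1A1* had r = -0.46 with the striatal markers (permutation p = 0.0764, adjusted p = 0.250), with rho at -0.38 (permutation p = 0.148, adjusted p = 0.483), and r was -0.05 without pigs 223-15 and 230-15. The part of neighbouring tissue in the levels of these genes was not tested.

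**Figure D5:**
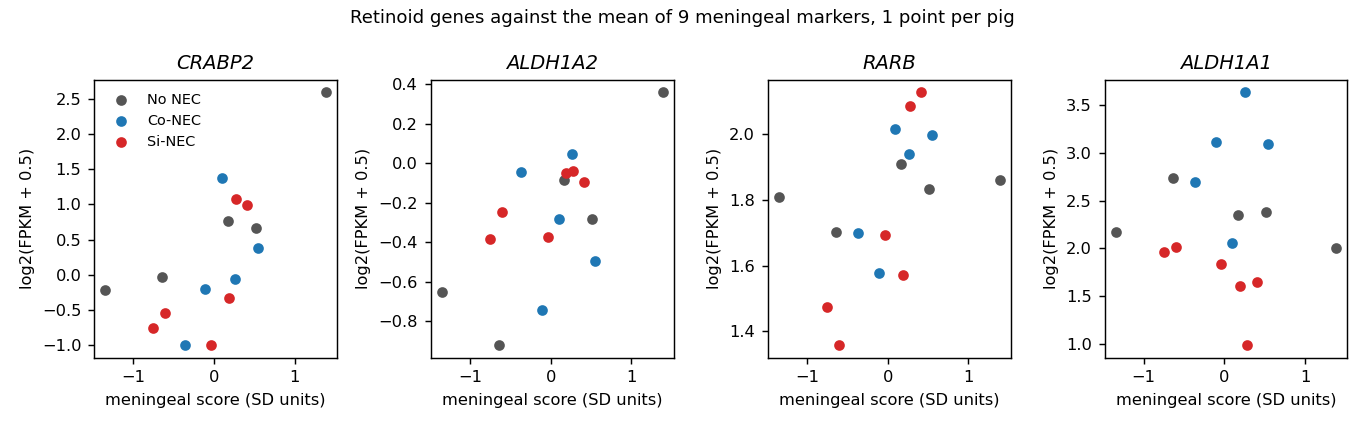
Log2(FPKM + 0.5) of *CRABP2*, *ALDH1A2*, *RARB* and *ALDH1A1* (vertical axes) against the mean standardised level of 9 meningeal markers (horizontal axes, SD units), with 1 point per pig coloured by group. *CRABP2* has r = 0.71 with the markers, and 0.55 without No NEC pig 228-15 at the top right, against r = -0.04 for *ALDH1A1*.

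The entries most like each gene across the 16 pigs were sought among 8507 named entries that averaged 1 FPKM or more, by Pearson's r of log2 levels and as a description. For *CRABP2* they were *SFRP5* (r = 0.86), *POSTN* (0.85), *FBLN1* (0.83), *ZIC1* (0.74) and 1 entry of *SLC13A4* (0.74). *POSTN* and *FBLN1* encode proteins of the extracellular matrix, and *SLC13A4* is one of the listed meningeal markers, left out of the marker level because it has several entries. For *ALDH1A1* they were *DZIP1L* (0.79), *DOCK5* (0.75), *ENO4* (0.71), *SEPSECS* (0.71) and the mitochondrial gene *COX1* (0.69), whose entry was listed at 0 in some pigs and reached 15986 FPKM in others. For *RARB* they were *P3H2* (0.77), *POGLUT3* (0.76), *APLF* (0.74), *STC1* (0.74) and the microglial receptor *P2RY12* (0.73).

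The leading entries of *RBP4* and *DHRS3* had higher r, and pigs 223-15 and 230-15 held the 2 highest values of both genes. For *RBP4* they were *ANKRD23* (r = 0.95), *RPRML* (0.92), *CTSA* (0.90), *CA11* (0.89) and *HIF3A* (0.89), and for *DHRS3* they were *KHDRBS3* (0.91), *ZNF789* (0.89), *FUNDC2* (0.88), *SDF4* (0.88) and *MRPL2* (0.88). *CRABP1* was followed by *GNLY* (0.83), *TMEM176A* (0.83), *SLC50A1* (0.83), *PTPN6* (0.83) and *PAAF1* (0.81). The entries nearest to *CYP26B1* were *SFSWAP* (0.79), *SYDE1* (0.78), *RPS6KL1* (0.78), *CDK5R1* (0.78) and *GPC2* (0.78). *ALDH1A2*, below the filter, was not included. Of the 8 genes *ALDH1A3* had the lowest leading r, with *GPD1L* (0.70), *ARF6* (0.70), *ZRANB3* (0.68), *SCIN* (0.67) and *YTHDF2* (0.66).

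The rest of the retinoid pathway was read from a list of 71 further genes, of which 55 were found by name and 36 were tested, as 37 entries. None passed the threshold in any comparison. Entries with higher and lower estimates numbered 18 and 19 in the Si-NEC comparison with No NEC pigs, 21 and 16 in that of Co-NEC, and 15 and 22 between the NEC groups. Those with an unadjusted p under 0.05 numbered 0, 1 and 1, beside 2.61%, 3.44% and 5.64% of all entries.

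Of the carriers and uptake genes, 4 of 9 listed were tested. The retinoic acid binding *FABP5* averaged 22.8 FPKM and *TTR*, the transthyretin that partners *RBP4* in blood, 11.2 FPKM. *TTR* is also a choroid plexus marker and spread widely, from 4.73 to 23.4 FPKM in No NEC and from 5.39 to 25.3 FPKM in Si-NEC pigs. In Co-NEC pigs it was listed at 0 in pig 255-15 and ran from 4.13 to 13.1 FPKM in the others, so the groups overlapped. Of the retinol and retinal enzymes 9 of 21 listed were tested, led by *ADH5* at 50.7 FPKM, *RDH11* at 36.5 FPKM and *RETSAT* at 22.1 FPKM. *RDH11*, a retinal reductase, was -0.21 for Si-NEC minus Co-NEC (SE 0.11, adjusted p = 0.867). With array weights, which called 201 of all entries there, it was -0.32 (adjusted p = 0.189).

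*CYP26A1*, which like *CYP26B1* breaks down retinoic acid, averaged 4.03 FPKM, while *CYP26C1* was at 0 in most pigs. All 15 of the receptors and co-regulators found, of 16 listed, were tested. The retinoid X receptors *RXRB*, at 24.8 FPKM, and *RXRG*, at 18.4 FPKM, were among the highest. The gene with the smallest p of this list, chosen after its values were seen, was the receptor *RARA*, at 11 ± 0.851 FPKM in No NEC, 9.04 ± 1.02 FPKM in Co-NEC and 9.74 ± 1.97 FPKM in Si-NEC pigs. Co-NEC minus No NEC was -0.27 on the log2 scale for *RARA* (SE 0.11, limma adjusted p = 0.812). The other gene with an unadjusted p under 0.05, the co-regulator *NRIP1*, was -0.26 for Si-NEC minus Co-NEC (SE 0.12, limma adjusted p = 0.867).

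Of the 23 listed genes known to respond to retinoic acid, 18 were found and 7 tested. The orphan receptors *NR2F1* at 89.9 FPKM and *NR2F2* at 13.2 FPKM and the lysophospholipase *ENPP2* at 32.9 FPKM were the highest. *HOXA2*, *HOXA3*, *HOXA5* and *HOXB1*, hindbrain and spinal cord genes that retinoic acid switches on in the embryo, were at 0 in all 16 pigs. Groups thus could not be compared on these classical targets in this tissue.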

How the data were processed

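Hippocampal RNA of 16 pigs was sequenced. The authors trimmed the reads, aligned them to Sscrofa 10.2 with TopHat 2.1.1 and deposited FPKM values per gene made with Cufflinks 2.2.1. The library kit named does not mark strand, so antisense transcripts were counted with their genes. No scaling between pigs is stated. Of 24594 entries, 1779 identical in every value to another were dropped. Symbols were matched by Ensembl gene ID through a RefSeq gene table (11001 of 21956 IDs), whose coordinates are of another build and were not used.

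The test took log2(FPKM + 0.5) of entries that averaged 0.5 FPKM or more. Groups were fitted 2 at a time with limma 3.58.1 in R 4.3.3 (eBayes with a mean-variance trend, no covariate) and Benjamini-Hochberg adjustment over all entries, with the study's threshold of 0.2. The fit was tested on simulated data. Correlations across pigs used 100000 two-sided permutations (20000 in the alternatives), adjusted over the 36 relations of a family. A marker score is the mean of standardised log2 levels of the listed genes with 1 entry that passed the filter. The remaining steps used scipy 1.17.1, pandas 2.3.3 and numpy 2.4.6 under Python 3.11.15, and matplotlib 3.10.9.

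The 9 genes and all lists were chosen with earlier results of these data known. Other retinoid genes are named if past the threshold or among the 3 highest of their role, apart from those said to be chosen later, and 5 entries are named as most like each of the 8 tested genes. The alternatives were offsets of 0.1 and 1, no filter, a minimum mean of 1 FPKM, median-of-ratios scaling, all groups in one fit, sex or number suffix as covariate, eBayes without trend or robust, array weights, an adjusted p of 0.05, and leaving out pigs. The sex interactions, the pairs of genes and the dehydrogenase sums were added after the data were seen. Some genes that this rule names are not reported here. No sequences are shown. The study's qPCR was not used here.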

Additional observations from a re-analysis of the deposited data

Results flagged for a closer look

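In the 27 sets of values given by 9 genes in 3 groups, the highest and the lowest pig were compared with the rest of the group by Dixon's test. Chance flags about 1 set in 20, and 3 were flagged. *ALDH1A3* was 2.36 FPKM in No NEC pig 253-15, where the next highest of the 5 pigs was 1.55 FPKM. *CRABP2* was 5.53 FPKM in No NEC pig 228-15, the pig with the highest summed meningeal markers, where the next highest was 1.2 FPKM. *DHRS3* was 26.6 FPKM in Si-NEC pig 223-15, 1 of the 2 libraries with the highest FPKM sums, where the next highest of the 6 pigs was 17.3 FPKM.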

How the results depend on the processing

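The 8 tested genes kept their call in all 568 values recomputed for single genes except 2, both of *ALDH1A1* for Si-NEC against Co-NEC, given in the report. All 568 moved by less than the within-group SD, but leaving out 1 pig could not move a value by more, so this is no sign of steadiness. Small differences changed sign. *CRABP1* for Si-NEC against Co-NEC kept its sign in 19 of 24 settings, and *RARB* for Co-NEC against No NEC in 18 of 23. With array weights the retinoid genes called for Si-NEC against Co-NEC numbered 1, and leaving out each pig gave 0 to 1. The other retinoid genes called numbered 1 with array weights (*RDH11*). Of all entries, 1 was called for Si-NEC against No NEC (2 with the number suffix as covariate, 4 with array weights, 1 to 3 leaving out each pig), and 1 for Co-NEC against No NEC (4 with no filter, 1 to 2 leaving out each pig). For Si-NEC against Co-NEC, 2 were called. That count was 1 with an offset of 0.1, no filter, all groups in one fit, sex or suffix as covariate, an adjusted p of 0.05 or without pigs 223-15 and 230-15, 201 with array weights, and 1 to 12 leaving out each pig (12 without Si-NEC pig 547-14, 5 without Co-NEC pig 255-15). The cause of these shifts was not tested. Relations with markers that passed by both r and rho numbered 0, and 1 with group means removed. No paired analysis was possible because the labels give each pig its own number and the groups share none. Depth is unknown, which limits *ALDH1A2* and *CRABP2* most.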
